A study of Solanum lycopersicum with 2 samples.

Results

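Transcripts of root transporters that take up ammonium, phosphate, iron and potassium were followed across single cells of the tomato root tip. The genes were taken from a list of 6 identifiers, Solyc09g090730 and Solyc04g050440 (AMT1), Solyc09g090070 and Solyc09g090080 (phosphate transporters), Solyc02g069200 (IRT1) and Solyc12g005670 (HAK5). Of these 6, 5 were found among the 34716 genes of the count tables and Solyc04g050440 was not analysed here. All 5 passed the filter on rarely seen genes, which kept 21682 genes. In the following, AMT1 stands for Solyc09g090730 and PT for Solyc09g090070. The names came with the list, since the reference gene table at hand pairs no name with these identifiers.

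Roots take up mineral ions from the soil solution through membrane transporters, many of which act at the plasma membrane of the outer cell layers and of root hairs. AMT1 proteins carry ammonium, and root phosphate transporters bring in phosphate together with protons. IRT1 imports ferrous iron in Arabidopsis, where it is the main iron importer of the root epidermis and is made when iron is short. HAK5 is a high-affinity potassium transporter whose transcript accumulates in roots short of potassium.

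Protoplasts, which are cells freed from their walls by enzymes, were made from root tips 3 cm long of wild-type tomato cultivar M82 at 7 days after sowing, grown on agar plates of Murashige and Skoog medium. Each library came from many pooled primary roots, and transcripts were counted as UMIs, random tags that mark each captured molecule once at its 3′ end, whatever its length. Both libraries belonged to 1 group, so no treatment or genotype was compared. The questions were in which cells each transporter transcript lay, and which of these transcripts lay in the same cells.

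Replicate 1 held 187215851 UMIs and 12403 cells after filtering, with a median of 8068 UMIs per cell. Replicate 2 held 81175339 UMIs and 10231 cells, with a median of 3801. The libraries shared 38 cell barcodes. Clustering without the transporter genes gave 28 clusters, of which 24 had at least 10 cells in each library. The 4 others were made of replicate 2 only, with 2333 cells or 22.8% of that library, and 0 cells of replicate 1, and 10 clusters took over 80% of their cells from 1 library. Cluster 25 was called exodermis-like, as 17 of 20 exodermis markers peaked in it. These markers were late exodermal genes listed by the study, which may have drawn them from these same cells, so they are not independent support. Of 12 suberin genes named by the study, 10 peaked there as well. Only 1 of the exodermis markers was among the 10 leading genes of cluster 25. Its cells had 0.272 and 0.398 of the median depth of replicates 1 and 2. The other clusters kept a number, since no markers of other cell types could be matched to the identifiers, so no cluster was named epidermis or root hair.

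AMT1 was detected broadly. In replicate 1 it had 12363 UMIs, or 69.2 CPM (UMIs per 1000000 UMIs of the genes kept), and in replicate 2 it had 9893 UMIs, or 129 CPM. At least 1 AMT1 UMI was found in 3466 cells of replicate 1, a share of 27.9% (exact Clopper-Pearson 95% interval, 27.2% to 28.7%), and in 2444 cells of replicate 2, a share of 23.9% (23.1% to 24.7%). These intervals, like all others below, cover counting error only. The shares depended on depth. AMT1-positive cells had a median of 14065.5 and 9150.5 UMIs in replicates 1 and 2, and after each cell was thinned to 2000 UMIs the shares were 12.9% and 15.6%. The highest count in a cell was 37 UMIs in replicate 1 and 58 in replicate 2.

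PT was nearly as widespread. It had 6172 UMIs (34.6 CPM) in 2800 cells of replicate 1 and 5988 UMIs (78.1 CPM) in 2155 cells of replicate 2. These were 22.6% and 21.1% of cells, or 8.52% and 12.7% after thinning. For both AMT1 and PT the level was higher in the shallower library, by 1.86-fold for AMT1 and 2.26-fold for PT.

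The other transcripts were rare. IRT1, the iron importer, had 258 UMIs (1.45 CPM) in 88 cells of replicate 1 and 95 UMIs (1.24 CPM) in 41 cells of replicate 2. Its share was 0.710% (0.569% to 0.873%) in replicate 1 and 0.401% (0.288% to 0.543%) in replicate 2. The IRT1 UMIs were concentrated in few cells, as the 10 cells with the most held 41.5% of them in replicate 1 and 63.2% in replicate 2. These few cells reached up to 24 and 16 UMIs. IRT1-positive cells were also deep, with a median of 34648.5 and 11135 UMIs, which was 4.29 and 2.93 times the median of their library.

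HAK5, the potassium transporter, was higher in the deeper library. It had 535 UMIs (3.00 CPM) in 327 cells of replicate 1 and 63 UMIs (0.822 CPM) in 40 cells of replicate 2, a 3.65-fold difference. Thinning did not remove the gap, with 0.866% (0.694% to 1.07%) of cells positive in replicate 1 and 0.102% (0.0412% to 0.211%) in replicate 2. Solyc09g090080, the other phosphate transporter, was barely detected, with 3 UMIs from 3 cells of replicate 1 and 6 UMIs from 6 cells of replicate 2. Its identifier lies next to that of PT, and how reads shared by close copies were counted is not known for either gene.

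**Figure D1:**
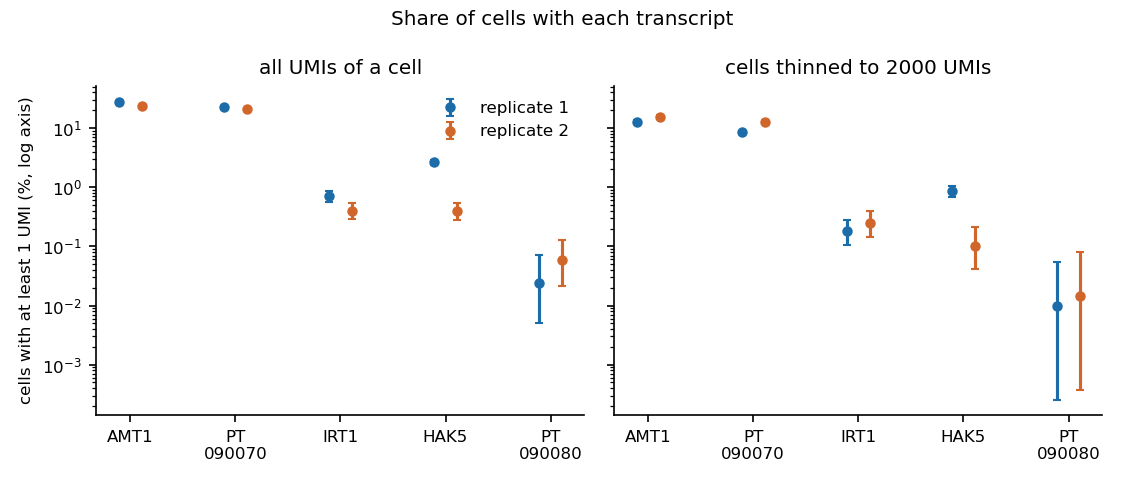
Share of cells with at least 1 UMI of each gene (percent, log axis) in replicate 1 and replicate 2, with all UMIs of a cell (left) and after thinning to 2000 UMIs (right). Points are shares and bars are exact 95% intervals. AMT1 and PT were found in 8.52% to 27.9% of cells and the other genes in at most 2.64%, and HAK5 stayed higher in replicate 1 after thinning.

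AMT1 was next followed across clusters. It was highest in cluster 8, at 975 CPM in replicate 1 (492 cells) and 1045 CPM in replicate 2 (452 cells). The mean was 1010 CPM ± 49.3 (SD, n = 2). Cluster 15 came next (466 and 742 CPM), then cluster 1 (212 and 389 CPM). The values of clusters 8, 15 and 1 did not overlap between neighbours in this order. Below them the ranges of cluster 4 (105 and 174 CPM) and cluster 2 (62.1 and 121 CPM) overlapped. The median over the 24 clusters was 18 CPM, and the lowest mean was 6.37 CPM in cluster 18. In replicate 2 cluster 18 had 15 cells and 1 AMT1 UMI. Cluster 8 was 159 times higher than that lowest mean, a level that cannot be told apart from free RNA.

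An AMT1 UMI was found in 89.4% of cluster 8 cells of replicate 1 and in 86.9% of those of replicate 2, at median depths of 10245 and 8940.5 UMIs. The lowest shares were found in cluster 14 of replicate 1, with 3.90% at a depth of 3816 UMIs, and in cluster 6 of replicate 2, with 3.08% at a depth of 2679.5 UMIs. No cluster was without AMT1 UMIs in either library, and shares near these lowest values cannot be told apart from free RNA. After thinning, 76.1% and 74.2% of the cells of cluster 8 were positive, against 3.08% in cluster 14 and 0.985% in cluster 6. Cluster 8 held 3.97% of the cells of replicate 1 and 32.1% of its AMT1 UMIs, and 4.42% of the cells of replicate 2 and 34.8% of its AMT1 UMIs.

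Some clusters were made up mostly of 1 library. Cluster 1 took 93.5% of its cells from replicate 1. Cluster 13 held 757 cells of replicate 2 alone and reached 504 CPM of AMT1, and cluster 20, with 610 cells of replicate 2 alone, reached 127 CPM. A cluster from 1 library cannot be told apart from that library.

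By the mean of the libraries, PT had the same first 3 clusters in the same order. Cluster 8 had 372 and 498 CPM, cluster 15 had 185 and 551 CPM, and cluster 1 had 126 and 244 CPM. For PT, unlike AMT1, the ranges of clusters 8 and 15 overlapped, and replicate 2 alone put cluster 15 first. Cluster 13 of replicate 2 reached 451 CPM. In the rest of the 24 clusters PT was at most 74.8 CPM, and the lowest mean was 4.35 CPM in cluster 5.

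The ratio of AMT1 to PT UMIs was also taken in each cluster. Over the 14 clusters of replicate 1 with at least 100 UMIs of both genes together it ran from 0.826 in cluster 18 to 4.30 in cluster 5, with a median of 2.18. Over 13 such clusters of replicate 2 it ran from 1.12 in cluster 13 to 4.47 in cluster 21, with a median of 1.67. Across the 24 clusters log2(CPM + 1) of AMT1 and PT had a Pearson correlation of 0.95 in replicate 1 and 0.91 in replicate 2. The clusters of a library share its depth and its free RNA, so these values are a description.

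Clusters 8, 15, 1 and 13 were pooled after the AMT1 levels had been seen. They held 22.2% of the cells of replicate 1 with 62.4% of its AMT1 UMIs and 57.8% of its PT UMIs. In replicate 2 they held 15.5% of the cells with 64.0% of the AMT1 UMIs and 67.9% of the PT UMIs. HAK5 had 44.5% and 47.6% of its UMIs in the pooled clusters in replicates 1 and 2. Most of this came from cluster 1 in replicate 1 (37.9%) and from cluster 13 in replicate 2 (36.5%). In cluster 8, where AMT1 was highest, HAK5 was at 2.95 and 1.22 CPM. IRT1 had only 2.71% and 3.16% of its UMIs in the pooled clusters.

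By the mean of the libraries, IRT1 was highest in cluster 4, at 15.9 CPM in replicate 1 (133 UMIs in 40 cells) and 6.94 CPM in replicate 2 (48 UMIs in 17 cells). Its range overlapped that of the next cluster, and replicate 2 alone put cluster 10 first. Cluster 4 held 3.91% of the cells and 51.6% of the IRT1 UMIs of replicate 1, and 7.63% of the cells and 50.5% of the IRT1 UMIs of replicate 2. In both libraries, then, about the same part of the IRT1 UMIs lay in this cluster. Cluster 2 held 90 IRT1 UMIs in replicate 1 (2.43 CPM) and 0 in replicate 2, where a count of 0 allows up to 2.42 CPM, about the level of replicate 1. The share of IRT1-positive cells there was 1.96% in replicate 1, and 0 of 141 cells in replicate 2 allows up to 2.58%. No difference in share was therefore detectable in cluster 2. Cluster 10 held 19 UMIs in replicate 2 (10.7 CPM), from 7 of 657 cells (1.07%). In replicate 1 it held 0 in 168 cells, which allows up to 5.71 CPM if UMIs are taken as independent. As a share of cells, 0 of 168 allows up to 2.17%, so no difference in share was detectable. No IRT1 UMI of either library lay in 12 of the 24 clusters. Cluster 1 was among them, where absence of UMIs allows levels up to 0.226 CPM for replicate 1 and 4.78 CPM for replicate 2. In cluster 8, where AMT1 and PT were highest, 1 cell of replicate 1 held 3 IRT1 UMIs and replicate 2 held 0.

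Within cluster 4 an IRT1 UMI was found in 8.25% of the replicate 1 cells and 2.18% of the replicate 2 cells, or 1.97% and 1.31% after thinning. Cells with 5 or more IRT1 UMIs numbered 17 in replicate 1, of which 8 were in cluster 2 and 7 in cluster 4. In replicate 2 there were 5 such cells, 3 of them in cluster 4.

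HAK5 had no cluster in which both libraries were highest. In replicate 1 it was at 15.3 CPM in cluster 1 (203 UMIs in 112 cells), at 11.9 CPM in cluster 26 (52 UMIs in 21 cells) and at 11.4 CPM in cluster 15 (23 UMIs in 14 cells). In replicate 2 it was at 0 in clusters 1 and 26, where 129 and 20 cells allow up to 4.78 and 20.0 CPM, and at 3.49 CPM in cluster 15 from 3 UMIs. Cluster 13, of replicate 2 alone, held 23 UMIs (5.77 CPM), which was 36.5% of the HAK5 UMIs of that library. HAK5 was higher in replicate 1 than in replicate 2 in 20 of the 24 clusters and lower in 2. In replicate 2 it was at 0 in 16 of the 24. Some of these zeros allow more than the level of replicate 1, as in cluster 9, with 5.46 CPM against up to 6.95 CPM. The count of 20 therefore does not show a difference in each of these clusters. Clusters 1 and 26 took 93.5% and 94.3% of their cells from replicate 1, so the place of HAK5 cannot be told apart from the library there.

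Of the 9 Solyc09g090080 UMIs, 2 of 3 in replicate 1 and 5 of 6 in replicate 2 lay in cluster 10. That cluster held 1.35% of the cells of replicate 1 and 6.42% of those of replicate 2. PT itself was low in cluster 10, at 13.3 and 24.9 CPM.

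**Figure D2:**
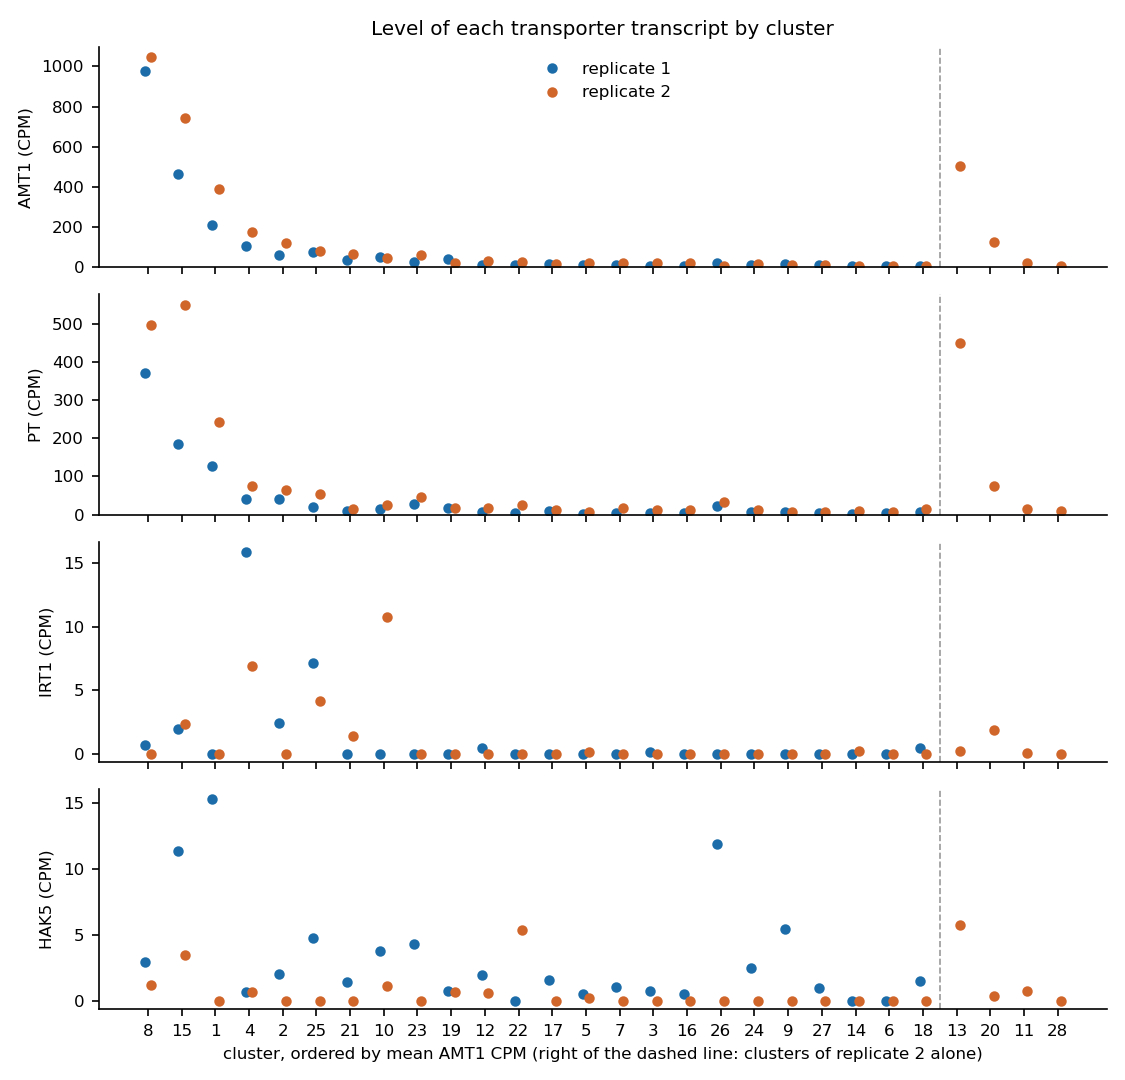
Level of AMT1, PT, IRT1 and HAK5 in CPM (linear axes) in each cluster, with 1 point for each library. Clusters run from the highest to the lowest mean AMT1 level, and the 4 clusters right of the dashed line held cells of replicate 2 alone. AMT1 and PT were high in clusters 8, 15 and 1, IRT1 was highest in cluster 4 in replicate 1 and in cluster 10 in replicate 2, and HAK5 was high in clusters that differed between the libraries.

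Counts were summed for each library and cluster, and edgeR's quasi-likelihood F test asked whether a gene differed among the 24 clusters. AMT1, PT, IRT1 and HAK5 all passed (4 of 4 tested), with adjusted p-values of 1.77e-23, 6.5e-24, 3.23e-07 and 4.46e-06. Of all 16155 genes tested, 94.9% passed, so this count says little about the transporters. Solyc09g090080 was too rare to be tested.

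The exodermis, the suberized layer under the epidermis, was the named layer that could be compared. The exodermis-like cluster held 94 cells of replicate 1 and 311 of replicate 2, and was set against the unweighted mean of the 23 other clusters in the same edgeR fit. Of the 4 transporters tested, 2 were higher and 0 lower (0 lower also at an unadjusted p under 0.05 and by DESeq2), against 14.3% of all genes higher and 9.32% lower. AMT1 reached 78.4 and 81.4 CPM there. Its log2 fold change was 1.08 (SE 0.26, adjusted p = 0.00217 by edgeR). The fit averages the other clusters on the log scale. Their plain mean was higher than the exodermis-like level, at 92.9 and 126 CPM, and it takes in clusters 8, 15 and 1. Among the 23 other clusters of the fit, AMT1 was higher than in the exodermis-like cluster in 4 in replicate 1 and in 5 in replicate 2. Clusters 13 and 20, of replicate 2 alone and outside the fit, were also higher, at 504 and 127 CPM.

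IRT1 reached 7.13 CPM among exodermis-like cells of replicate 1, from 3 UMIs in 1 cell, and 4.17 CPM among those of replicate 2, from 4 UMIs in 2 cells. The plain mean of the other clusters was 0.964 and 0.949 CPM. The fitted log2 fold change was 4.99 (SE 1.17, adjusted p = 0.00247 by edgeR), but with so many clusters at 0 this value depends on how zeros are treated, and DESeq2's Wald test gave 4.41 with an adjusted p of 0.768. PT, at 19.0 and 53.2 CPM, had a log2 fold change of 0.72 (SE 0.28, adjusted p = 0.0582 by edgeR), and it passed under 7 of 13 alternatives. HAK5 had 2 UMIs and 0 UMIs there (log2 fold change 0.57, SE 0.87, adjusted p = 0.729 by edgeR).

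It was then asked which of the transcripts lay in the same cells. Deep cells carry more UMIs of every gene, so the number of cells with both genes was set against the number expected from the single shares within 10 strata of UMI depth. AMT1 and PT were found together in 1742 cells of replicate 1, where 971 were expected, and in 1371 cells of replicate 2, where 705 were expected. The ratios were 1.79 and 1.94. A PT UMI was found in 50.3% (48.6% to 51.9%) of the AMT1-positive cells of replicate 1 and 56.1% (54.1% to 58.1%) of those of replicate 2, against 11.8% and 10.1% of the AMT1-negative cells. After thinning, 27.9% and 42.1% of AMT1-positive cells had a PT UMI, against 5.66% and 7.33% of AMT1-negative cells.

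Much of this co-detection followed the clusters. With the expected number taken within cluster and depth strata, the ratio for AMT1 and PT was 1.13 in replicate 1 (1726 cells with both, 1526 expected) and 1.12 in replicate 2 (1346 cells, 1207 expected).

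IRT1 was found with AMT1 in 55 of its 88 cells in replicate 1, where 33.2 were expected within depth strata, and in 28 of its 41 cells in replicate 2, where 13.8 were expected. With PT it shared 50 cells (28.4 expected) and 25 cells (12.4 expected). Within cluster and depth strata the ratios were 1.03 and 1.30 for IRT1 with AMT1, and 1.15 and 1.36 for IRT1 with PT. After thinning, 18 IRT1-positive cells were left in replicate 1 and 17 in replicate 2, of which 1 and 4 had an AMT1 UMI and 2 and 2 a PT UMI. These counts are too small to show a difference. Most IRT1-positive cells carried another of these transcripts, since 38 of 88 and 19 of 41 had both AMT1 and PT, and 21 and 7 had neither.

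HAK5 was found with AMT1 in 130 of its 327 cells in replicate 1 (111 expected within depth strata) and in 26 of its 40 cells in replicate 2 (15.2 expected). With PT it shared 140 cells (93.2 expected) and 23 cells (13.5 expected). Within cluster and depth strata the ratios were 0.985 and 1.23 for HAK5 with AMT1, and 1.15 and 1.10 for HAK5 with PT. HAK5-positive cells of replicate 1 had neither AMT1 nor PT in 135 of 327 cases, and those of replicate 2 in 9 of 40.

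IRT1 and HAK5 were almost never seen together. They shared 2 cells in replicate 1, where 3.50 were expected, and 0 cells in replicate 2, where 0.315 was expected. Both genes were too rare for a shortfall to be detectable at this depth. The 0 of 41 IRT1-positive cells of replicate 2 allows a share of HAK5-positive cells of up to 8.60% (upper exact 95% bound). No cell of either library held AMT1, PT, IRT1 and HAK5 together, and 118 cells of replicate 1 and 38 of replicate 2 held 3 of the 5 genes. Solyc09g090080 was found in 1 cell of replicate 1 and 2 cells of replicate 2 together with PT.

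**Figure D3:**
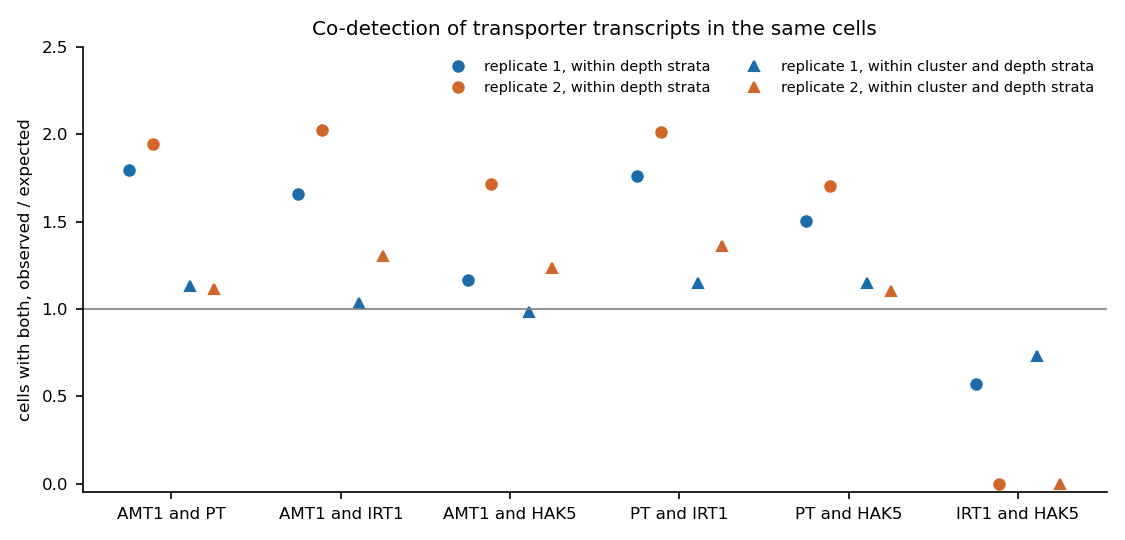
Cells with both genes of a pair, observed over expected, for each pair of the 4 more abundant genes and each library. Circles take the expected number within depth strata and triangles within cluster and depth strata, and the line marks a ratio of 1. All pairs but IRT1 with HAK5 lay above 1 within depth strata, between 1.17 and 2.02, and between 0.985 and 1.36 within cluster and depth strata.

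The levels of the other transporters were next compared between cells with and without a UMI of a given one, with counts summed for each library and state and the library as a block. Of the 12 ordered pairs tested, 7 were higher, 0 were lower and 5 did not pass the edgeR threshold. At an unadjusted p under 0.05, 1 was lower. DESeq2 gave an adjusted p for 10 of the 12 and called 8 higher and 0 lower. With no library block, edgeR called 0 of the 12, and 4 had an unadjusted p under 0.05. The block pairs positive and negative cells of the same library. AMT1-positive cells are described first. Between these states 25.4% of all genes were higher and 24.1% lower.

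PT was at 67.2 and 167 CPM in AMT1-positive cells of replicates 1 and 2, against 14.5 and 24.9 CPM in AMT1-negative cells, and the states did not overlap. That is a log2 fold change of 2.65 (SE 0.16, adjusted p = 5.89e-04 by edgeR). IRT1 was at 3.03 and 2.36 CPM in AMT1-positive cells, against 0.470 and 0.564 CPM (log2 fold change 2.60, SE 0.24, adjusted p = 0.00165 by edgeR). HAK5 was at 3.40 and 1.63 CPM in AMT1-positive cells, against 2.75 and 0.334 CPM. Its log2 fold change of 1.02 (SE 0.44, adjusted p = 0.111 by edgeR) did not pass, and DESeq2 gave an adjusted p of 0.0191. AMT1-positive cells were 1.74 and 2.41 times as deep as the median cell. Among cells thinned to 2000 UMIs, the log2 fold change of PT was 2.99 (edgeR adjusted p = 7.57e-08). Thinning leaves out shallower cells and changes which cells count as positive, so the part of depth in the difference was not tested.

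All 3 other transporters tested were higher in PT-positive cells, where 30.1% of all genes were higher and 32.6% lower. AMT1 was at 156 and 303 CPM, against 29.4 and 42.7 CPM in PT-negative cells (log2 fold change 2.86, SE 0.12, adjusted p = 8.68e-06 by edgeR). IRT1 was at 3.11 and 3.03 CPM, against 0.686 and 0.351 CPM (log2 fold change 2.75, SE 0.28, adjusted p = 1.87e-04 by edgeR). HAK5 was at 4.50 and 1.61 CPM, against 2.31 and 0.430 CPM (log2 fold change 1.47, SE 0.26, adjusted p = 0.00213 by edgeR). For HAK5 the values of the states overlapped across libraries, and within each library the PT-positive cells were higher, with a log2 ratio of CPM of 0.96 without replicate 2 and 1.91 without replicate 1.

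IRT1-positive cells gave smaller differences. There 9.31% of all genes were higher and 10.3% lower. AMT1 was at 85.7 and 191 CPM in IRT1-positive cells, against 69.0 and 129 CPM (log2 fold change 0.71, SE 0.21, adjusted p = 0.00742 by edgeR). PT was at 46.2 and 135 CPM, against 34.4 and 77.7 CPM (log2 fold change 0.87, SE 0.23, adjusted p = 0.00161 by edgeR). Both fitted values lay above the log2 ratios of the CPM, which were 0.31 without replicate 2 and 0.57 without replicate 1 for AMT1, and 0.43 and 0.79 for PT. The median fitted log2 fold change of all genes was -0.27 in this comparison. Neither gene passed without the deepest 5% of cells (log2 fold changes 0.36 and 0.66, edgeR adjusted p = 0.413 and 0.0954). Among thinned cells the log2 fold changes turned to -0.96 and -0.98 (edgeR adjusted p = 0.917 for both). HAK5 had 2 UMIs and 0 UMIs in IRT1-positive cells (log2 fold change -1.86, SE 1.33, adjusted p = 0.373 by edgeR).

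In HAK5-positive cells 0 of 3 passed with edgeR (1 at an unadjusted p under 0.05), where 4.11% of all genes were higher and 7.62% lower. With DESeq2 0 passed of the 2 that were given an adjusted p. AMT1 was at 48.2 and 101 CPM in HAK5-positive cells, against 70.1 and 129 CPM (log2 fold change -0.38, SE 0.15, adjusted p = 0.0862 by edgeR), and it passed without the low-count filter (edgeR adjusted p = 0.0359). PT was at 38.8 and 67.1 CPM, against 34.4 and 78.2 CPM (log2 fold change 0.10, SE 0.17, adjusted p = 0.889 by edgeR). IRT1 had 6 UMIs and 0 UMIs in HAK5-positive cells (log2 fold change -0.93, SE 0.84, adjusted p = 0.669 by edgeR).

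**Figure D4:**
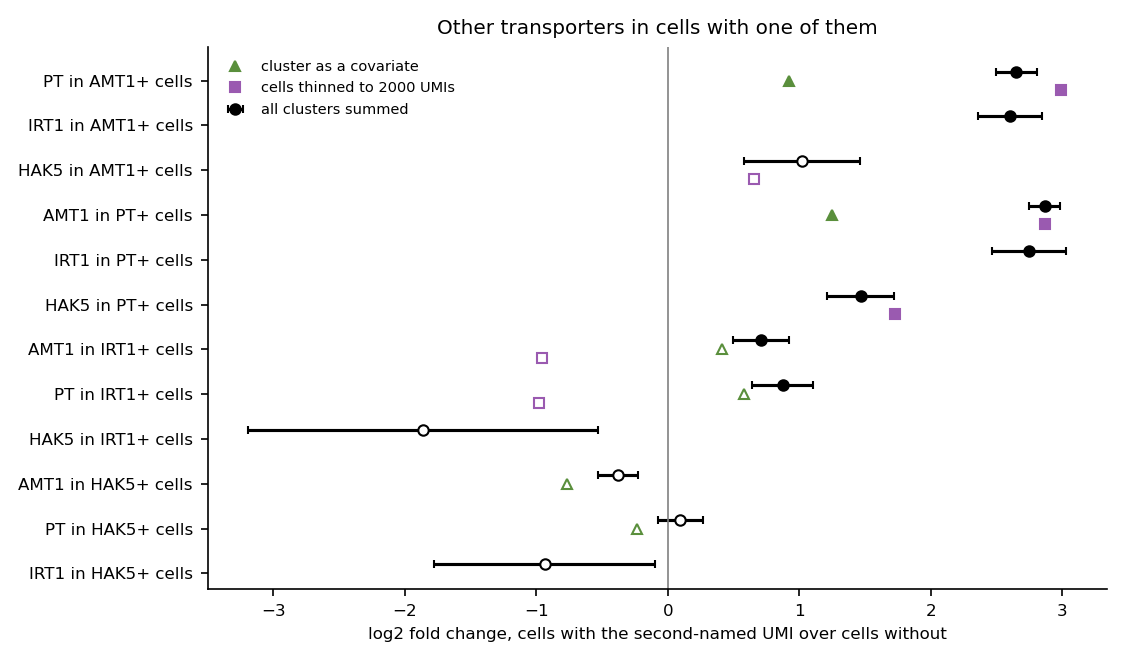
Log2 fold change of each transporter between cells with and without a UMI of another, for the 12 ordered pairs tested. Circles with bars are the fit over all clusters summed with its SE, triangles the fit with cluster as a covariate and squares the fit on cells thinned to 2000 UMIs, where the gene could be fitted. Filled symbols passed an adjusted p of 0.05, and with cluster as a covariate only PT in AMT1-positive cells and AMT1 in PT-positive cells did. The share of all genes passing with cluster as a covariate is not given.

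The same comparison within clusters left a smaller difference between AMT1 and PT. With cluster as a covariate, the log2 fold change was 0.92 for PT in AMT1-positive cells (edgeR adjusted p = 3.31e-10) and 1.25 for AMT1 in PT-positive cells (edgeR adjusted p = 3.25e-08). The blocks of this fit were the clusters of each library, which are not replicates. The share of all genes that passed it is not given here, so these calls lack a background. Taken cluster by cluster, PT was higher by CPM in AMT1-positive cells in 19 of 21 clusters of replicate 1 and in 19 of 22 of replicate 2. Some of these directions rest on few UMIs. The AMT1-positive cells held 2 PT UMIs in cluster 10 of replicate 1 and 2 in cluster 6 of replicate 2. Such counts were not made over all genes, so the counts of clusters here and below lack a background. In cluster 8 PT was at 380 and 519 CPM in AMT1-positive cells, against 234 and 197 CPM in AMT1-negative cells. In cluster 13 it was at 530 CPM, against 252 CPM. AMT1 in turn was higher in PT-positive cells in 16 of 17 clusters of replicate 1 and 21 of 22 of replicate 2, with the same limits. Cluster 15 was the exception in both, with AMT1 at 461 and 738 CPM in PT-positive cells, against 470 and 751 CPM in PT-negative cells.

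**Figure D5:**
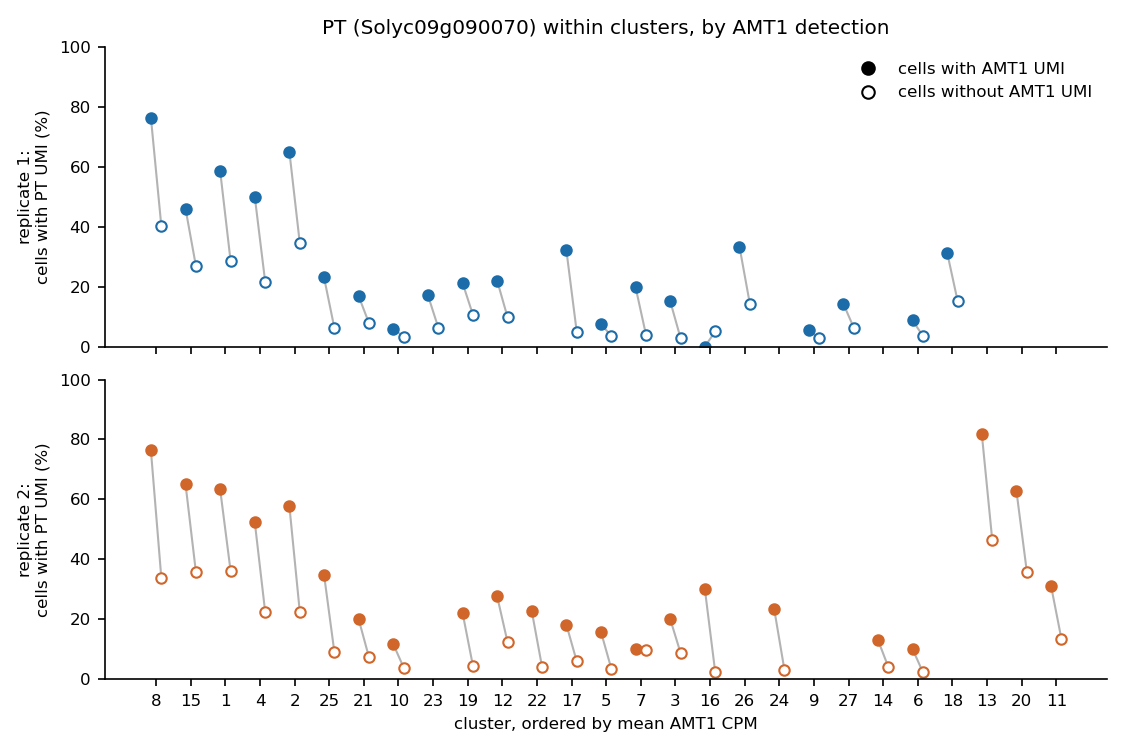
Share of cells with a PT UMI (percent) within each cluster, for cells with an AMT1 UMI (filled) and cells without (open), in replicate 1 (top) and replicate 2 (bottom). Lines join the states of a cluster, and clusters with too few cells of a state are left out. In cluster 8 the shares were 76.4% and 40.4% in replicate 1 and 76.3% and 33.9% in replicate 2, and depth differs between the states.

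Within clusters, AMT1 was higher in HAK5-positive cells in 3 of 7 clusters of replicate 1 and in 0 of 1 of replicate 2. The 3 were clusters 9, 18 and 26, and in cluster 18 it was at 9.63 CPM in HAK5-positive cells, against 5.16 CPM in HAK5-negative cells. The difference ran the other way in clusters 1, 2, 12 and 15 of replicate 1 and in cluster 13 of replicate 2. In cluster 1 of replicate 1 AMT1 was at 108 CPM in 112 HAK5-positive cells, against 220 CPM in 1743 HAK5-negative cells. In cluster 13 of replicate 2 it was at 73.5 CPM in 11 HAK5-positive cells, against 518 CPM in 746 HAK5-negative cells. With cluster as a covariate the log2 fold change was -0.77 and did not pass (edgeR adjusted p = 0.199). By CPM, PT was lower in HAK5-positive cells in both clusters too, at 90.0 against 130 CPM in cluster 1 and at 171 against 460 CPM in cluster 13. By share of cells with a PT UMI it was higher, at 47.3% against 41.0% in cluster 1 and 81.8% against 66.9% in cluster 13. For AMT1 these shares were 35.7% against 42.8% and 63.6% against 58.4%. In cluster 13 the HAK5-positive cells held only 9 AMT1 and 21 PT UMIs, and depth was not matched between the states. By CPM, PT was higher in HAK5-positive cells in 5 of 7 clusters of replicate 1. IRT1-positive cells could be compared in cluster 2 of replicate 1 and in cluster 4 of both libraries. In cluster 2 AMT1 was at 103 CPM in 30 IRT1-positive cells, against 60.9 CPM in IRT1-negative cells, and PT at 69.8 CPM, against 39.4 CPM. In cluster 4 AMT1 was at 115 and 199 CPM, against 103 and 173 CPM in IRT1-negative cells, and PT at 47.6 and 99.3 CPM, against 38.4 and 73.5 CPM. With cluster as a covariate the log2 fold changes were 0.41 for AMT1 and 0.58 for PT and did not pass (edgeR adjusted p = 0.334 and 0.169).

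Genes were ranked by how much their levels over the 24 clusters were like those of each transporter, by the lower of the Pearson correlations of log2(CPM + 1) in the libraries, among 14744 genes with at least 100 UMIs in each library. PT ranked 6 for AMT1 and AMT1 ranked 9 for PT. The first gene for AMT1 was Solyc09g089780 (0.95 in replicate 1 and 0.93 in replicate 2) and the first for PT was Solyc01g080920 (0.95 and 0.94). IRT1 and HAK5 had under 100 UMIs in replicate 2, and their values are weaker. The first gene for IRT1 was Solyc07g009380 (0.70 and 0.80), and AMT1 ranked 545. The first for HAK5 was Solyc11g056670 (0.66 and 0.62), and PT ranked 101. The files pair no names with these identifiers.

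A list of 6 further identifiers linked to nutrient uptake was compared in the same way. Of these, 3 were kept, 2 were seen too rarely and 1 belonged to the genes induced by protoplasting. In AMT1-positive cells, 1 of the 2 that could be tested was higher and 0 were lower, and their median log2 fold change was 0.85, against -0.05 for all genes. Solyc12g006850 was at 9.28 and 12.9 CPM in AMT1-positive cells, against 5.47 and 4.55 CPM (log2 fold change 1.28, SE 0.21, adjusted p = 0.0079 by edgeR). Solyc11g018530 was at 1.00 and 4.90 CPM, against 0.688 and 4.81 CPM (log2 fold change 0.43, SE 0.20, adjusted p = 0.129 by edgeR). In PT-positive cells both were higher, Solyc11g018530 by a log2 fold change of 1.85 (SE 0.19, edgeR adjusted p = 1.84e-04) and Solyc12g006850 by 1.43 (SE 0.13, edgeR adjusted p = 1.29e-04). In IRT1-positive cells Solyc11g018530 was at 0.353 CPM in replicate 1 (1 UMI) and 135 CPM in replicate 2 (82 UMIs), against 0.814 and 3.80 CPM in IRT1-negative cells. Its log2 fold change was 3.85 (SE 0.46, adjusted p = 6.02e-15 by edgeR). The difference rested on replicate 2, since the 1 UMI of replicate 1 gave a level below that of IRT1-negative cells. This gene was named there after its values had been seen.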

How the data were processed

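Raw UMI counts per gene and barcode were used as deposited, and the authors had made these counts with cellranger 6.0.1 on the tomato build SL4.0 with annotation ITAG4.1 and organelle sequences added. The cell and gene filters took the limits of the study's methods, namely at least 500 UMIs and at most 1% organelle UMIs per cell, and genes in more than 3 cells. They took out 78 and 22 cells of replicates 1 and 2. Organelle genes were dropped too, as were 820 matched genes of the 821 listed as induced by protoplasting, none of them a transporter studied here. Doublets were kept.

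Counts scaled to 10000 per cell were log-transformed, and 2000 variable genes, without the transporters, the further nutrient genes and the exodermis markers, were centred within library. Leiden clustering (leidenalg 0.10.2, resolution 1, seed 1, 35 components, 20 neighbours) was run in Python 3.11.15. The study named its clusters with other gene sets, so differences from it may come from the rebuilt names. Cells were not used as replicates. UMIs were summed per library and cluster, or per library and state, where positive means at least 1 UMI of a gene. The sums were tested in edgeR 4.0.16 (TMM, filterByExpr, glmQLFit, glmQLFTest) with library as a block, Benjamini-Hochberg adjustment over all genes tested and a threshold of 0.05. SE was taken as the absolute log2 fold change divided by the root of the F statistic. Positive and negative sums came from the same 2 libraries. The block takes out differences in level between the libraries. The p-values therefore measure how far a difference between states or clusters varied from library to library. The labels give only replicate numbers, so this spread may be technical. With cluster as a covariate, each cluster of each library was a block. Those p-values measure how far a difference between states varied over clusters of the same libraries, which are not replicates. The fits were also run on counts simulated with a fixed spread and the same gene proportions in both libraries. The outcome is not given here, and it does not cover the library differences seen in these data.

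Shares carry exact 95% Clopper-Pearson intervals. Where no UMI was seen, the upper limit was set at 3 UMIs. Thinning drew 2000 UMIs per cell and left out 2353 and 3399 shallower cells. Comparisons within a cluster needed 10 cells of each state. All 5 genes found are named, with the first of the genes most like each of them and the further nutrient genes tested in AMT1-positive cells. A gene table of the reference did not pair these identifiers with names, so the nutrient list shrank to 6 identifiers given by hand. The transporters, lists and tests were chosen with earlier results of these data known. Alternatives were resolutions of 0.5 and 2, seed 2, listed genes kept as features, no centring, at least 1000 UMIs, 5% organelle UMIs, protoplasting genes kept, the deepest 5% of cells removed, DESeq2 1.42.0 size factors and test, no low-count filter, no library block, 2 UMIs for a positive cell, thinning, cluster as a covariate, other strata and each library alone.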

Additional observations from a re-analysis of the deposited data

How the results depend on the processing

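The count of transporters that differed among clusters was 4 of 4 with edgeR in all alternatives with that test but 1, where the 5 genes tested without the low-count filter all passed, and 3 with DESeq2. It was not computed without replicate 1 or replicate 2, since a single library leaves no residual spread. The count higher in the exodermis-like cluster stayed at 2 or 3 in all alternatives with a test, and on plain CPM means with no test it ran from 1 to 2 with a replicate left out. The count of ordered pairs higher was 0 of 12 with no replicate block in edgeR (4 at an unadjusted p under 0.05). It was 8 with DESeq2, which gave an adjusted p for 10 of the 12. Without the deepest 5% of cells it was 5. It was 3 on cells thinned to 2000 UMIs and 2 with cluster as a covariate, where 6 pairs could be fitted in each. The share of all genes passing with cluster as a covariate is not given. With a replicate left out, and with no test, the count of ordered pairs higher ran from 8 to 9. For the nutrient list in AMT1-positive cells the count of 1 became 0 of 2 with no replicate block by edgeR (1 at an unadjusted p under 0.05), against 1 with DESeq2, and it was 2 with either replicate left out, with no test. With cluster as a covariate none of these genes could be fitted. The ratio of AMT1 with PT, 1.87 within depth strata, was 1.12 within cluster and depth strata, 2.44 with no strata and 3.29 on thinned cells, and 1.79 to 1.94 with a replicate left out. Directions turned in thinned cells for AMT1 and PT in IRT1-positive cells (-0.96 and -0.98), and for PT in HAK5-positive cells with no replicate block (-0.012), with cluster as a covariate (-0.24) and without replicate 1 (-0.22). Only 18 and 17 IRT1-positive cells were left after thinning. The cause of the other changes was not tested. Depth limited IRT1, HAK5 and Solyc09g090080, whose UMIs numbered 353, 598 and 9 over both libraries.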
